A study of Mus musculus with 33 samples.

Results

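A set of 10 genes of the myofibroblast and TGF-beta programme were followed in mouse kidney after an adenovirus carrying interferon-alpha had been given. The listed genes were Acta2, Tagln, Vim, S100a4, Pdgfra, Pdgfrb, Tgfb1, Tgfbr2, Tgfbi and Fbn1, chosen by name. Of these 10 genes, 8 had at least 1 probe set annotated with their symbol alone, among 17097 genes measured in this way, and together they held 14 of the 45037 probe sets tested. The probe set with the highest mean over the 33 arrays stood for each gene. Tagln shares its only probe set with Pcsk7 and Fbn1 was paired with no probe set, so neither was analysed here.

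The kidneys came from the lupus-prone cross NZB X NZW F1 (BWF1), in which immune complex nephritis develops with age. The labels place 30 kidneys in an ADV_IFNa group, with 5 kidneys at each of weeks 1, 2, 3, 5, 7 and 9 after treatment, and 3 kidneys in an untreated group. All mice share the BWF1 background, and per the study's methods they were females and the vector was injected into a vein at 9 weeks of age. The paper's results text gives a slightly younger age. The paper calls its controls age-matched, but neither the age of the untreated mice nor the week they match is given in the labels. With 1 untreated group and no group given an empty vector, the virus, the interferon and the ageing of the treated mice cannot be told apart. The methods describe more than 1 longitudinal experiment, and the labels do not say which kidney belongs to which.

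TGF-beta is released from cells bound in a latent complex, and once active it is bound by the receptor Tgfbr2, which recruits and activates the receptor Tgfbr1. The receptors phosphorylate Smad proteins, which enter the nucleus and act on genes of the matrix and the contractile cytoskeleton. In the injured kidney, fibroblasts and pericytes, cells that carry the PDGF receptors Pdgfra and Pdgfrb, can take on a myofibroblast form that contains smooth muscle actin (Acta2) and deposits collagen. Several of these genes are not restricted to such cells. Vim, an intermediate filament of mesenchymal cells, and S100a4, a calcium-binding protein once used as a fibroblast marker, are also expressed by leukocytes, and vascular smooth muscle is the main place of Acta2 in a healthy kidney.

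The promoters of 3 genes are shown as examples, because these genes rose in the late weeks and carry a match to a motif of the pathways named above. They are from RefSeq on GRCm38.p6, written 5′ to 3′ on the strand of the gene, from 250 bases before the start site to 50 bases after it. Capitals mark matches to the SMAD element (CAGAC, searched on both strands) or to a CArG-like box, the serum response factor motif with 1 of its 6 inner bases being G or C. The promoter of Acta2 lies at chr19:34255324-34255623 on the minus strand, that of Tgfbr2 at chr9:116175314-116175613 on the minus strand and that of Tgfbi at chr13:56609336-56609635 on the plus strand.
Acta2: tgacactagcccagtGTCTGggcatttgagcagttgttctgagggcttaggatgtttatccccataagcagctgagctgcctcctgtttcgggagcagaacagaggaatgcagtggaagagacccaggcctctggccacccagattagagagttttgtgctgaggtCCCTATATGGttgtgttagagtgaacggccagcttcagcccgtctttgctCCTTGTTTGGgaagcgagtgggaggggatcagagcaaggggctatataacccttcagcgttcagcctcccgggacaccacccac
Tgfbr2: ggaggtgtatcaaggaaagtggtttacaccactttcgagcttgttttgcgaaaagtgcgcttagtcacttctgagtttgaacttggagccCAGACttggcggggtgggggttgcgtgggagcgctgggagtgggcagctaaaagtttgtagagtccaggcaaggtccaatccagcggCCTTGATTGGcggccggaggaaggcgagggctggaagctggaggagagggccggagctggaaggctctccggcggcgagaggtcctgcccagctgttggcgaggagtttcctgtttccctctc
Tgfbi: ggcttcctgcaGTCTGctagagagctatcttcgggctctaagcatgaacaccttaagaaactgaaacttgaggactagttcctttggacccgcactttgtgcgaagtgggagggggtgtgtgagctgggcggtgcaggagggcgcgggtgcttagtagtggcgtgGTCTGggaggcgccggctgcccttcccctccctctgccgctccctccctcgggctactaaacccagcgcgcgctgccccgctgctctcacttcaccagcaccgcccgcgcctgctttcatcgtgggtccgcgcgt

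Acta2 carried a pair of CArG-like boxes, which begin 84 and 34 bases before the start site, and Tgfbr2 carried 1. Such a box is found in 8.5% of the 32851 promoters of this length. The SMAD element was found in 5 of the 7 promoters searched, those of Acta2, S100a4, Pdgfra, Tgfbr2 and Tgfbi, and in 49.6% of all promoters. The promoter of Pdgfrb, on chromosome 18, was left out of the search. The full CArG box, found in 1.63% of promoters, and the AP-1 site (TGANTCA), found in 7.81%, had no match in these 7 windows. No motif overlapped another.

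Levels are log2 intensities after RMA normalization, so a difference of 1 is a 2-fold change. Differences were tested with limma on all 33 arrays. The p-values were adjusted by the Benjamini-Hochberg method over all 45037 probe sets, separately in each comparison, and calls were made at an adjusted p below 0.05. The tissue matched its label, since Umod, the main protein of the thick ascending limb, lay between 10.8 and 11.3 in every kidney. The 3′/5′ log2 ratio of beta-actin, a measure of RNA integrity, was 1.68 to 2.19 in treated kidneys and 1.47 to 1.75 in untreated kidneys. In 29 of 30 treated kidneys it lay above the highest untreated kidney. The same ratio of Gapdh overlapped between the groups, at 1.36 to 1.74 in treated and 1.40 to 1.59 in untreated kidneys. The part of the beta-actin ratio in the changes against untreated kidneys was read only through a fit with that ratio as a term. In that fit 3, 4 and 4 of the 8 genes were called at weeks 5, 7 and 9, and the share of all probe sets was not counted. A kidney is a mixture of cells, and more cells of a type cannot be told apart from more RNA per cell.

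No gene of the 8 was called in the first weeks. At weeks 1, 2 and 3 the changes against untreated kidneys ran between -0.45 and 0.66, and 0 of 8 genes were called by limma at each week, beside 1.43%, 1.33% and 1.38% of all probe sets. At an unadjusted p below 0.05 the numbers were 1, 0 and 1, and the share of all probe sets at that threshold was not counted. At week 5, 3 of 8 genes rose (Tgfbi, Vim and S100a4), beside 1.85% of all probe sets that rose and 1.11% that fell. At week 7, 5 of 8 rose, these 3 with Tgfbr2 and Acta2, beside 9.85% that rose and 5.82% that fell. At week 9, 4 of 8 rose (Tgfbi, Vim, S100a4 and Tgfbr2), beside 6.41% that rose and 7.53% that fell. None of the 8 fell at any week. The median change of the 8 genes in weeks 5, 7 and 9 was 0.54, 1.08 and 0.70, while that of all probe sets was -0.01, 0.02 and -0.06.

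**Figure D1:**
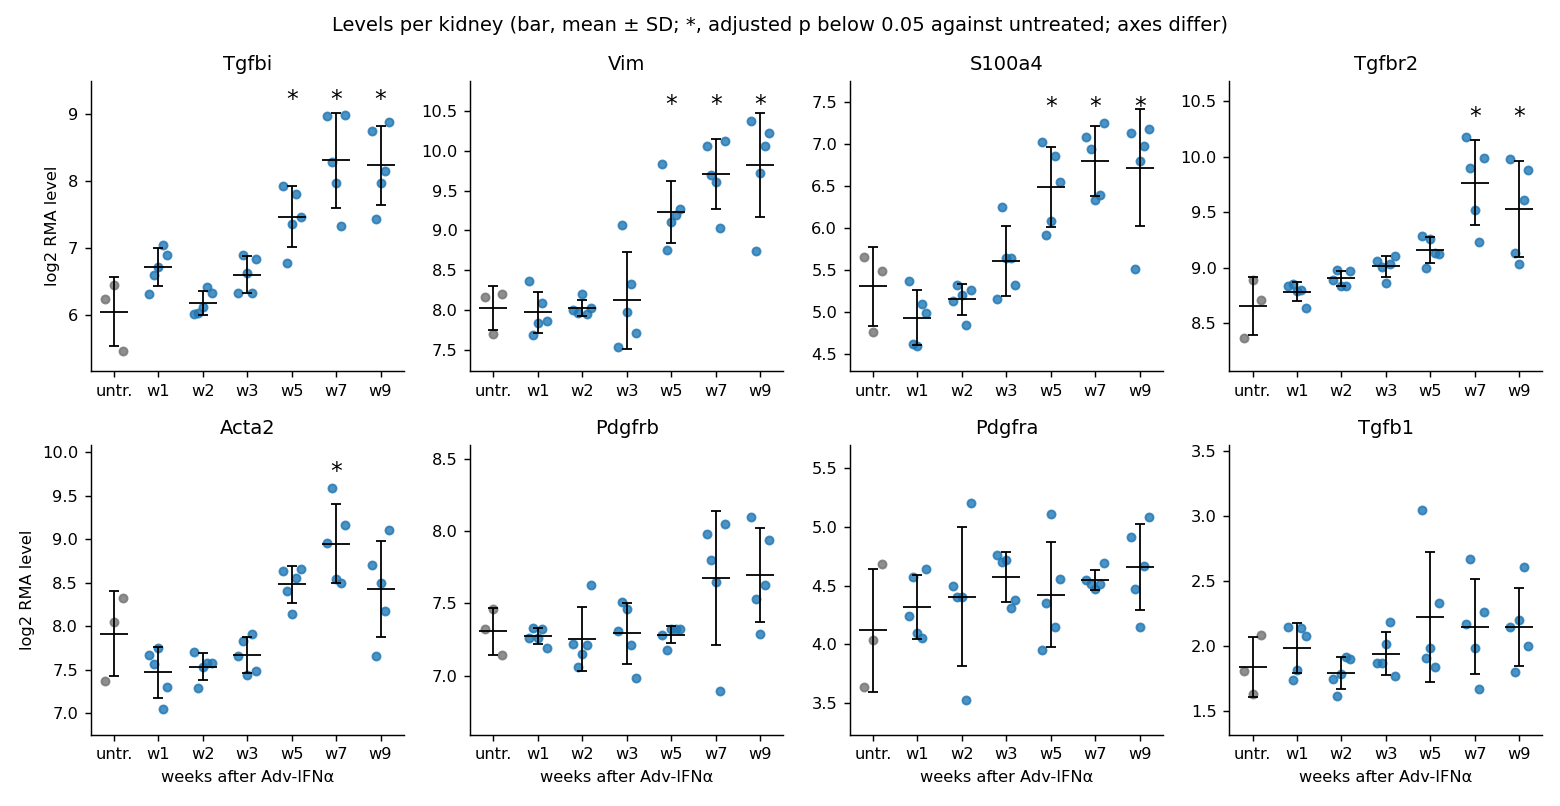
Log2 RMA level (y axis, a different range in each panel) of the 8 genes in each kidney, by group (x axis, untreated and weeks after Adv-IFNα), with bars for the mean and SD and an asterisk for an adjusted p below 0.05 against untreated. Tgfbi, Vim and S100a4 stood apart from untreated kidneys from week 5, Tgfbr2 at weeks 7 and 9 and Acta2 at week 7, while Pdgfrb, Pdgfra and Tgfb1 passed the test at no week.

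Tgfbi, a matrix protein induced by TGF-beta that links cells to collagen, changed the most. Its levels were 8.97, 8.28, 7.97, 7.32 and 8.99 in week 7 kidneys, against 6.24, 6.44 and 5.46 in untreated kidneys. In week 9 kidneys they were 8.74, 7.43, 7.97, 8.15 and 8.88. Every kidney of both late weeks lay above every untreated kidney, while by the second Tgfbi probe set 4 of 5 did at week 7. The rise was 2.26 ± 0.31 (SE) at week 7, or 4.79-fold (adjusted p = 5.54e-06), and 2.19 ± 0.31 at week 9, or 4.56-fold (adjusted p = 1.55e-05). It had begun by week 5, when levels of 7.93, 6.77, 7.35, 7.81 and 7.46 gave a rise of 1.42 ± 0.31 (adjusted p = 0.00685). The group means ran 6.05 ± 0.52 in untreated kidneys (SD, n = 3), then 6.71 ± 0.28, 6.18 ± 0.18, 6.60 ± 0.27, 7.46 ± 0.46, 8.31 ± 0.71 and 8.24 ± 0.59 at weeks 1, 2, 3, 5, 7 and 9 (SD, n = 5 each). Among neighbouring weeks, only weeks 7 and 5 differed by the test, by 0.84 ± 0.27 (adjusted p = 0.0424). Without untreated replicate 3, the lowest of the untreated kidneys, the week 5 rise was 1.12 and missed the threshold (adjusted p = 0.0964).

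Vim had levels of 10.38, 8.74, 9.72, 10.06 and 10.23 in week 9 kidneys, against 8.16, 7.70 and 8.20 in untreated kidneys. In week 7 kidneys they were 10.06, 9.70, 9.61, 9.03 and 10.13, and in week 5 kidneys 9.84, 8.76, 9.11, 9.20 and 9.27. No kidney of these 3 weeks overlapped the untreated ones. Vim rose by 1.81 ± 0.29 at week 9 (3.49-fold, adjusted p = 0.000112), by 1.69 ± 0.29 at week 7 (3.22-fold, adjusted p = 0.000164) and by 1.21 ± 0.29 at week 5 (2.32-fold, adjusted p = 0.0176). Up to week 3 its group means lay between 7.97 and 8.12. A single early kidney stood higher, week 3 replicate 2 at 9.07, while the other week 3 kidneys lay between 7.53 and 8.33. Without untreated replicate 2 the week 5 change was 1.05 (adjusted p = 0.0671), and without week 5 replicate 1 it was 1.06 (adjusted p = 0.0585).

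S100a4 moved much as Vim did. Its levels were 7.08, 6.94, 6.34, 6.39 and 7.25 in week 7 kidneys, against 5.66, 4.77 and 5.49 in untreated kidneys, with no overlap. The rise was 1.5003 ± 0.30 (2.83-fold, adjusted p = 0.000672). In week 9 kidneys the levels were 7.13, 5.51, 6.80, 6.98 and 7.18, and 4 of 5 lay above every untreated kidney. The exception was replicate 2, and the rise was 1.42 ± 0.30 (2.67-fold, adjusted p = 0.00164). At week 5 all 5 kidneys, between 5.92 and 7.02, lay above the untreated ones, and the rise was 1.19 ± 0.30 (2.28-fold, adjusted p = 0.0226). This week 5 call was lost without untreated replicate 2 (adjusted p = 0.11), untreated replicate 3 (0.0556), week 5 replicate 1 (0.0683) or week 5 replicate 4 (0.0564). In the within-group deviations, the part of the levels that the group means leave over, Vim and S100a4 correlated at r = 0.90, the highest value of any pair of these genes (r = 0.96 over all 33 kidneys, all from the same arrays).

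Markers of leukocytes were higher in the same weeks. Of 16 leukocyte genes, 6 rose at week 5, 10 at week 7 and 11 at week 9, and none fell, with a median change of 0.73, 1.07 and 1.435. Of all probe sets, 1.85%, 9.85% and 6.41% rose at these weeks. Ptprc, the common antigen of leukocytes, rose by 2.16 ± 0.24 at week 7 (adjusted p = 2.3e-07), and Adgre1, a macrophage receptor, by 2.58 ± 0.33 at week 9 (adjusted p = 4.2e-06). The mean level of the 16 genes was 4.69 to 5.69 in week 5 kidneys, 5.07 to 5.66 in week 7 kidneys and 5.11 to 6.09 in week 9 kidneys, against 4.18 to 4.39 in untreated kidneys. The same mean was 4.80 in week 3 replicate 2, the highest of its week, which was also the week 3 kidney highest in Vim and S100a4. At week 5 replicate 1 was highest in the leukocyte mean, at 5.69, and in both genes. Over the 6 weeks, the kidney highest in the leukocyte mean was also highest in Vim in 3 weeks and in S100a4 in 2 weeks. At week 7, replicate 1 was highest in the leukocyte mean and replicate 5 in both genes. The part of leukocytes in the change of Vim and S100a4 was not tested.

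**Figure D2:**
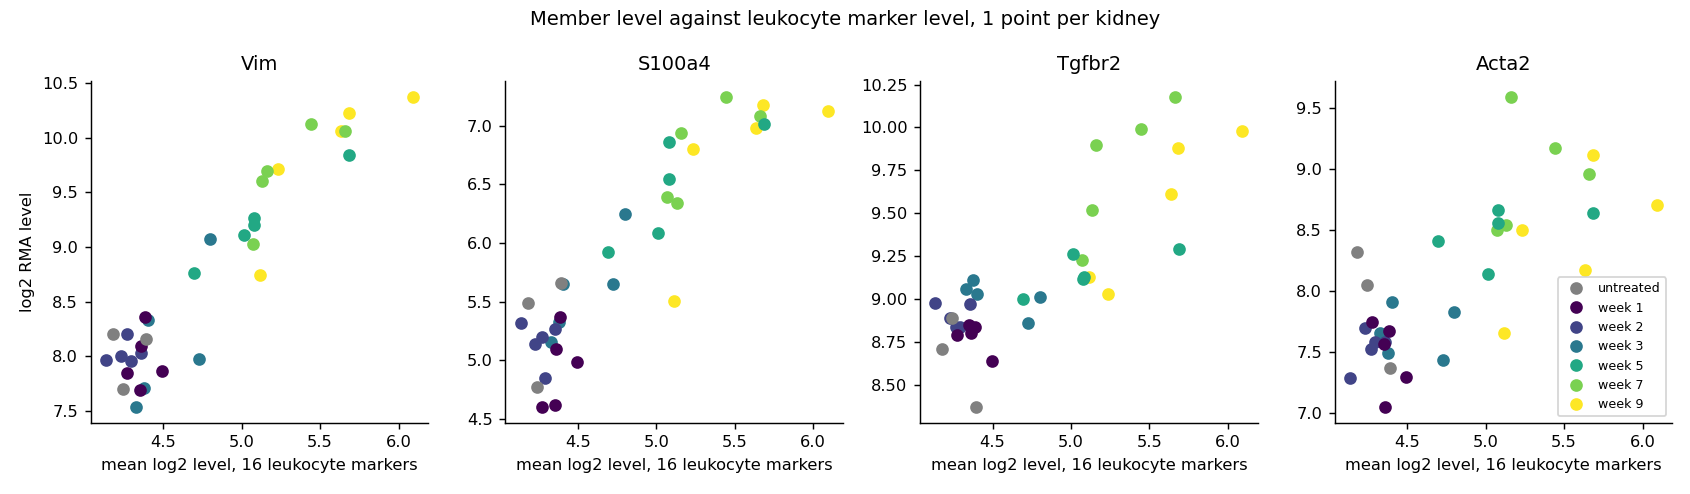
Log2 RMA level of Vim, S100a4, Tgfbr2 and Acta2 (y axes, ranges differ) against the mean log2 level of 16 leukocyte markers (x axis), with 1 point per kidney coloured by group. Kidneys of weeks 5, 7 and 9 hold leukocyte means from 4.69 to 6.09 and untreated kidneys from 4.18 to 4.39.

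Tgfbr2, the receptor that binds active TGF-beta, was the brightest of the 8 genes, brighter than 92.7% of named genes. Its levels were 10.18, 9.90, 9.52, 9.23 and 9.99 in week 7 kidneys, against 8.37, 8.89 and 8.71 in untreated kidneys. In week 9 kidneys they were 9.98, 9.13, 9.03, 9.61 and 9.88. All 10 lay above the untreated kidneys. The rise was 1.11 ± 0.18 at week 7 (2.16-fold, adjusted p = 5.4e-05) and 0.87 ± 0.18 at week 9 (1.83-fold, adjusted p = 0.00114). Group means were 8.66 ± 0.26 in untreated kidneys (SD, n = 3) and then 8.78 ± 0.08, 8.90 ± 0.07, 9.01 ± 0.09, 9.16 ± 0.12, 9.76 ± 0.38 and 9.53 ± 0.43 from week 1 to week 9 (SD, n = 5 each). The mean was higher at each collection week up to week 7, but only the step between weeks 5 and 7 passed the test (0.60 ± 0.15, adjusted p = 0.0104), and at week 5 the change against untreated was 0.51 ± 0.18 (adjusted p = 0.112). With only the untreated and week 9 kidneys in the fit, the week 9 call was lost (adjusted p = 0.0521), and with its 3 probe sets averaged the week 9 change was 0.25 (adjusted p = 0.0866).

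Acta2, the actin of smooth muscle and of myofibroblasts, passed the test against untreated kidneys at week 7 only. Its levels were 8.96, 9.59, 8.54, 8.50 and 9.17 in week 7 kidneys, against 7.37, 8.05 and 8.32 in untreated kidneys. The rise was 1.04 ± 0.24 (2.06-fold, adjusted p = 0.00285). In week 9 kidneys the levels were 8.70, 7.66, 8.50, 8.17 and 9.11, which overlap the untreated ones, and the difference of 0.51 ± 0.24 missed the threshold (adjusted p = 0.159). Untreated kidneys spread widely, and the treated kidneys of weeks 1, 2 and 3 lay between 7.05 and 7.91, below the upper 2 of the 3 untreated kidneys. The week 7 call was lost without untreated replicate 1, the lowest one (0.77, adjusted p = 0.0528), when the beta-actin ratio was a term of the fit (0.95, adjusted p = 0.0732) and when its bright and its dim probe set were averaged (0.29, adjusted p = 0.267). Without week 9 replicate 2 the week 9 change was 0.70 (adjusted p = 0.0328). This probe set is of a kind that can match several transcripts, and part of its signal may come from other actins. The probe set that stood for Tgfbi is of the same kind.

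Acta2 was also compared among treated kidneys alone. Levels at week 5 were 8.64, 8.41, 8.14, 8.56 and 8.66, all above the highest of the 15 kidneys of weeks 1, 2 and 3. A comparison of week 5 with the mean of weeks 1, 2 and 3 was added after the data had been seen. In it Acta2 rose by 0.93 ± 0.17 (adjusted p = 0.00329), S100a4 by 1.26 ± 0.21 (adjusted p = 0.00108), Vim by 1.19 ± 0.21 (adjusted p = 0.00166) and Tgfbi by 0.97 ± 0.22 (adjusted p = 0.0268). These were 4 of 8 genes, beside 0.404% of all probe sets that rose. All of these kidneys received the vector. The differences do not use the levels of the 3 untreated kidneys, but their tests share a variance estimate with all 33 arrays.

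The PDGF receptors passed the test against untreated kidneys at no week. Pdgfrb, the receptor of pericytes and mesangial cells, had levels of 7.98, 7.80, 7.65, 6.89 and 8.05 in week 7 kidneys, against 7.32, 7.46 and 7.14 in untreated kidneys. In week 9 kidneys they were 8.10, 7.53, 7.29, 7.63 and 7.94. At each of these weeks 4 of 5 kidneys lay above every untreated kidney, and the changes were 0.37 ± 0.18 (adjusted p = 0.178) and 0.39 ± 0.18 (adjusted p = 0.151). Week 7 replicate 4 was the lowest of all 33 kidneys in Pdgfrb, and without it the week 7 change was 0.56 (adjusted p = 0.00781). Up to week 5 the group means lay between 7.25 and 7.31. In the within-group deviations Pdgfrb correlated with Tgfbr2 at r = 0.72 and with Tgfbi at 0.71. With Vim, S100a4 and Acta2 the values were 0.53, 0.41 and 0.40.

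Pdgfra, the receptor of interstitial fibroblasts, was dimmer, with a mean of 4.45 over all arrays. Its levels were 4.91, 4.47, 4.15, 4.67 and 5.08 in week 9 kidneys, against 3.64, 4.04 and 4.68 in untreated kidneys. These overlap, and the change was 0.54 ± 0.26 (adjusted p = 0.167). At week 7 it was 0.43 ± 0.26 (adjusted p = 0.286). The lowest and the highest kidney of all 33 were both at week 2, at 3.53 and 5.20.

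Tgfb1, the main TGF-beta ligand, was measured by a single dim probe set with a mean of 2.02, and only 9.7% of named genes were dimmer. Its levels were 2.17, 2.67, 1.99, 1.67 and 2.26 in week 7 kidneys, against 1.81, 1.63 and 2.09 in untreated kidneys, and the change was 0.31 ± 0.21 (adjusted p = 0.347). At week 9 it was 0.31 ± 0.21 (adjusted p = 0.34). The highest level was 3.05, in week 5 replicate 1. At this brightness a change in the transcript may be compressed, and these values leave its direction undetermined.

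The other probe sets of Vim (means 7.93 and 7.76) and Tgfbi (mean 4.70) gave the same direction as the brightest ones at weeks 7 and 9. Those of Acta2 and Tgfbr2 were dimmer, and none was called. All 3 probe sets of Vim rose at weeks 7 and 9, by 1.35 to 1.69 and by 1.46 to 1.81. At week 5 the third missed the threshold (1.19 ± 0.34, adjusted p = 0.051). The second probe set of Tgfbi rose by 1.39 ± 0.35 at week 7 (adjusted p = 0.00507) and by 1.84 ± 0.35 at week 9 (adjusted p = 0.000556), and had a change of 1.05 ± 0.35 at week 5 (adjusted p = 0.0926). The second Acta2 probe set, with a mean of 1.92, showed -0.47 ± 0.26 at week 7 (adjusted p = 0.229) and -0.64 ± 0.26 at week 9 (adjusted p = 0.09). The dim Tgfbr2 probe sets, with means of 1.63 and 3.23, showed changes between -0.15 and 0.25 at these weeks, and none was called.

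**Figure D3:**
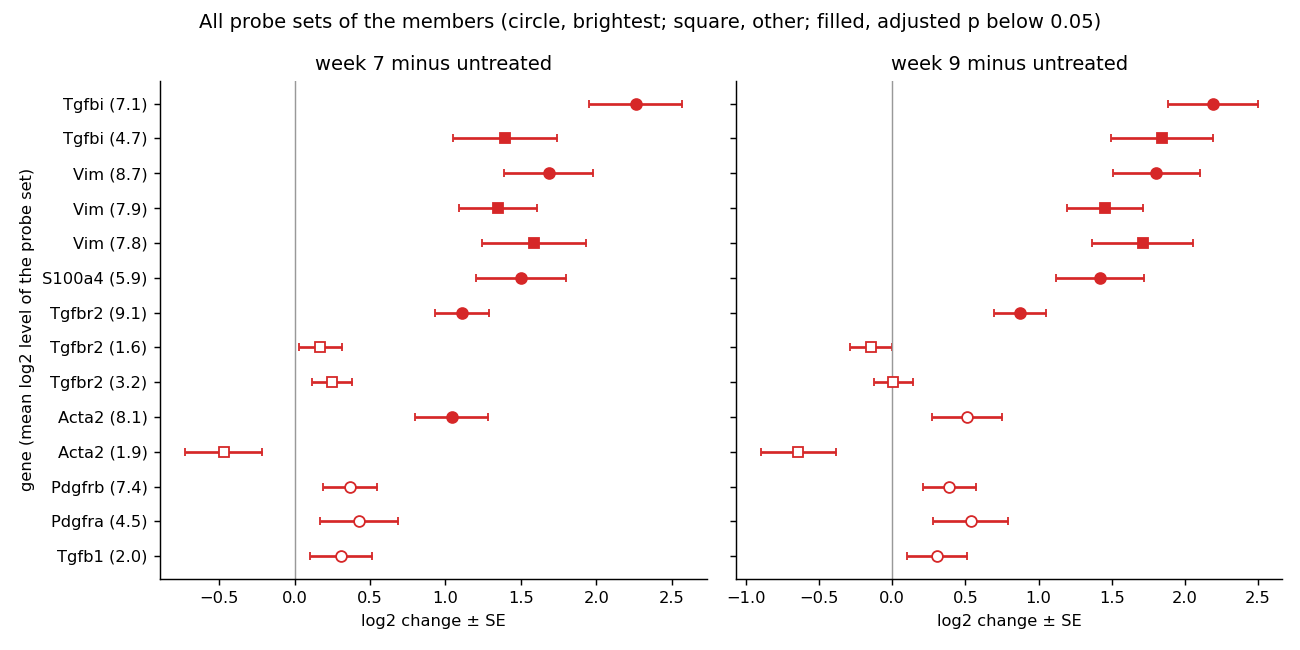
Log2 change with its standard error (x axis) of each of the 14 probe sets of the 8 genes (rows, with the mean log2 level in brackets) at week 7 and week 9 against untreated, where circles are the brightest probe set of a gene, squares the others, and filled symbols have an adjusted p below 0.05. The probe sets of Tgfbi and Vim all lie to the right of 0, while the dim ones of Acta2 and Tgfbr2 do not follow the bright one.

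Within the treated mice, week 9 was set against week 1 to follow the change without the levels of the untreated group, which still enter the variance estimate. Vim rose by 1.86 ± 0.26 (3.62-fold, adjusted p = 1.96e-05), S100a4 by 1.79 ± 0.26 (3.45-fold, adjusted p = 3.54e-05) and Tgfbi by 1.53 ± 0.27 (2.88-fold, adjusted p = 0.000273). Acta2 rose by 0.96 ± 0.21 (adjusted p = 0.00269) and Tgfbr2 by 0.74 ± 0.15 (adjusted p = 0.00158). These 5 of 8 genes stand beside 4.64% of all probe sets that rose. Pdgfrb had a change of 0.43 ± 0.16 (adjusted p = 0.0882), Pdgfra of 0.34 ± 0.22 (adjusted p = 0.418) and Tgfb1 of 0.16 ± 0.18 (adjusted p = 0.669).

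Between successive collections, only Tgfbr2 and Tgfbi passed the test, both between weeks 5 and 7, where 4.72% of all probe sets rose. The Tgfbi call was lost without any 1 of 6 of the 10 kidneys, and both calls were lost without week 7 replicate 1 (adjusted p = 0.0547 for Tgfbr2 and 0.157 for Tgfbi) and with only these 2 weeks in the fit. No gene of the 8 was called by limma between weeks 1 and 2, 2 and 3, 3 and 5 or 7 and 9, where 0.0999%, 0.0111%, 0.0155% and 0.0688% of all probe sets were called. At an unadjusted p below 0.05 the numbers were 0, 0, 4 and 1, with no share of all probe sets counted at that threshold to set beside them. The changes between weeks 3 and 5 reached 1.11 ± 0.26 for Vim (adjusted p = 0.157) and 0.86 ± 0.27 for Tgfbi (adjusted p = 0.603).

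The late kidneys were not alike. Week 7 replicate 4 was the lowest of its week in 6 of the 8 genes, and its level of Lcn2, a tubular injury marker, was 4.30, against 8.53 to 9.93 in the other 4 kidneys of that week. Week 9 replicate 2 was the lowest of its week in 5 of the 8 genes, with an Lcn2 level of 4.82, and replicate 3 in the other 3, with 5.90, while the remaining week 9 kidneys had Lcn2 between 8.55 and 9.94. Lcn2 in untreated kidneys was 3.75 to 4.37. In week 7 replicate 4 the levels of Tgfbi (7.32), Vim (9.03), S100a4 (6.39), Tgfbr2 (9.23) and Acta2 (8.50) lay above every untreated kidney. In week 9 replicate 2 those of Tgfbi (7.43), Vim (8.74) and Tgfbr2 (9.13) did, while S100a4 (5.51) and Acta2 (7.66) lay within the untreated range. The second probe set of Tgfbi was at 3.91 in week 7 replicate 4, within its untreated range of 3.36 to 4.37. In week 9 replicate 2 it was at 5.67, above that range. Of 9 genes of injured tubules, 8 rose at week 7 and 7 at week 9, with a median change of 1.80 and 1.5004. Of all probe sets, 9.85% and 6.41% rose at these weeks. The part of tubular injury in the changes of the 8 genes was not tested.

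Genes that act in the same pathways were counted in lists chosen by name. The counts of this and the following lists stand beside the shares of all probe sets. These were 9.85% that rose and 5.82% that fell at week 7, and 6.41% and 7.53% at week 9. At week 5 they were 1.85% and 1.11%. Of 15 measured ligand, latency and activation genes, 7 rose and 1 fell at week 7 and 6 rose and 2 fell at week 9, with a median change of 0.41 and 0.34. Bmp2, a ligand of the BMP branch, rose by 0.96 ± 0.22 at week 7 (adjusted p = 0.0024), Tgfb3, a TGF-beta ligand, by 0.91 ± 0.25 (adjusted p = 0.012), and Ltbp3, which holds TGF-beta in its latent complex, by 0.73 ± 0.21 (adjusted p = 0.014). Tgfb3 was dim, with a mean of 3.48 over all arrays. Bmp7, an opponent of TGF-beta in the kidney tubule, fell by 0.84 at week 7 (SE 0.19, adjusted p = 0.0018) and by 0.82 at week 9 (SE 0.19, adjusted p = 0.003). Of the 10 other receptors of the family, 2 rose and 1 fell at week 7 and 1 rose and 1 fell at week 9. In a list of this size the counts of both weeks lie near the shares of all probe sets. Tgfbr1, the partner of Tgfbr2, rose by 0.62 ± 0.16 at week 7 (adjusted p = 0.0062) and by 0.58 ± 0.16 at week 9 (adjusted p = 0.012), and the median of the 10 was -0.08 and -0.07.

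Of 16 Smads and inhibitors, 4 rose and 1 fell at week 7 and 2 rose and 2 fell at week 9. The week 9 counts lie not far above the shares of all probe sets. Grem1, an antagonist of BMP ligands, rose by 1.72 ± 0.42 at week 7 (adjusted p = 0.0041), and Nog, another BMP antagonist, showed a change of -0.79 ± 0.18 at that week (adjusted p = 0.0019). Grem1 and Nog were dim, with means of 3.49 and 3.11 over all arrays. Against untreated kidneys, Nog had changes of -0.64 (adjusted p = 0.0579), -0.76 (0.02), -0.73 (0.0243) and -0.73 (0.0176) at weeks 1, 2, 3 and 5. All of these differences use the same 3 untreated kidneys. Smad3, which carries the TGF-beta signal, had a change of 0.28 ± 0.11 (adjusted p = 0.091), and Smad7, which inhibits it, of 0.02 ± 0.15 (adjusted p = 0.94).

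Among the pathway lists, that of known TGF-beta targets had the highest median. Of 19 measured genes, 12 rose and 1 fell at each of weeks 7 and 9, with a median change of 1.18 and 0.99, beside 1 that rose at week 5. Col1a1, a chain of collagen I, rose by 2.85 ± 0.45 at week 7 (adjusted p = 5e-05) and by 2.42 ± 0.45 at week 9 (adjusted p = 0.00053). Its mean was 8.86 ± 1.05 at week 7 and 8.43 ± 1.30 at week 9 (SD, n = 5 each), against 6.01 ± 0.30 in untreated kidneys (SD, n = 3). Col3a1, the chain of collagen III, rose by 2.37 ± 0.39 at week 7 (adjusted p = 9.1e-05), Timp1, an inhibitor of matrix proteases, by 2.22 ± 0.45 (adjusted p = 0.00082) and Col6a3 by 2.12 ± 0.33 (adjusted p = 3.5e-05). Timp1 was dim, with a mean of 3.77 over all arrays. Id1, a target of the BMP branch, fell by 0.75 at week 7 (SE 0.25, adjusted p = 0.038). Postn, a matrix protein of myofibroblasts, had a change of 0.35 ± 0.28 (adjusted p = 0.43). At week 5, when Tgfbi, Vim and S100a4 had risen, the only target called was Col6a3 (1.14 ± 0.33, adjusted p = 0.049).

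**Figure D4:**
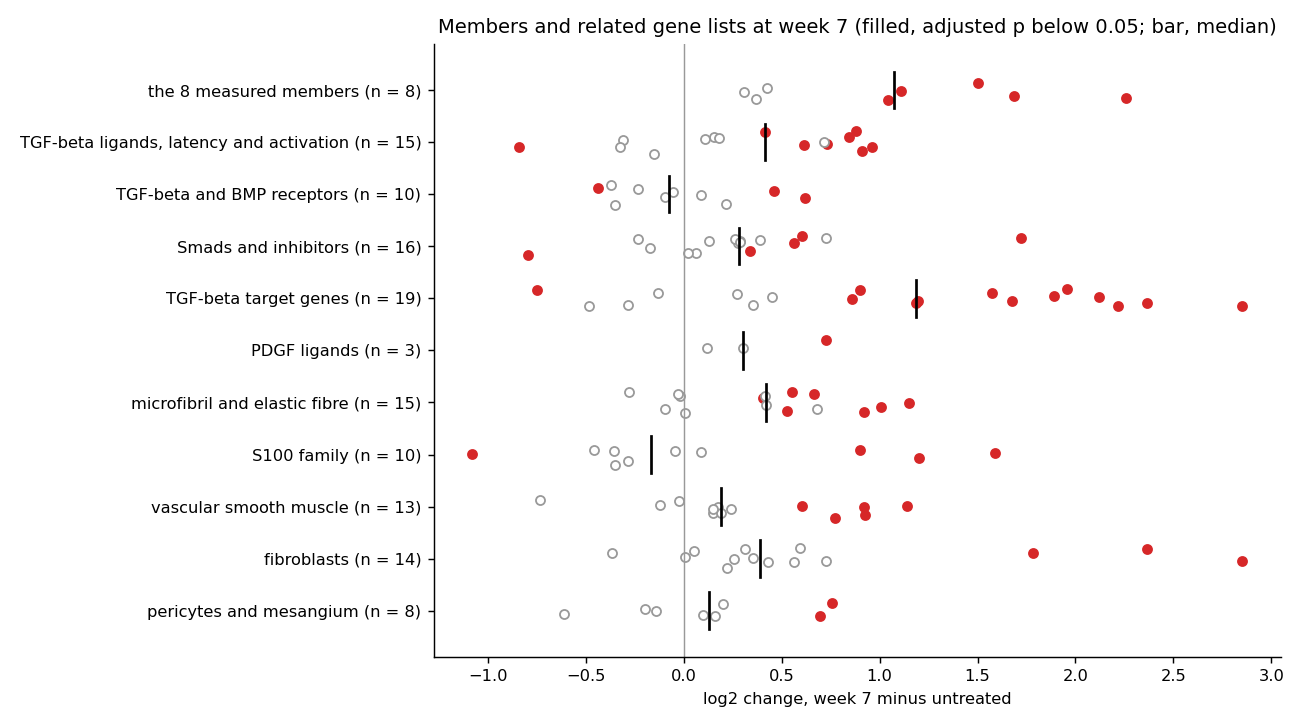
Log2 change at week 7 against untreated (x axis) of the 8 genes and of the genes in 10 related lists (rows, n measured), with filled points for an adjusted p below 0.05 and a bar for the median of each list. Of the lists drawn, the 8 genes (median 1.08) and TGF-beta target genes (1.18) lie furthest to the right, and the receptors (-0.08) lie near 0.

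Among the lists that adjoin single genes of the set, 7 of 15 microfibril and elastic fibre genes rose at week 7 and 7 at week 9. Loxl1, which cross-links elastin, rose by 1.15 ± 0.26 at week 7 (adjusted p = 0.0024) and Efemp1, a fibulin, by 1.01 ± 0.22 (adjusted p = 0.0013). Of 10 other S100 genes, 3 rose at each week, S100a6, S100a11 and S100a10, while S100g, a calcium buffer of the distal tubule, fell by 1.08 at week 7 (SE 0.16, adjusted p = 2.1e-05). At week 9, 4 of the 10 fell. Of 3 measured PDGF ligands, Pdgfb rose at week 7 (0.73 ± 0.22, adjusted p = 0.022) and none passed at week 9.

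Contractile genes of vascular smooth muscle were read beside Acta2. At week 7, 5 of 13 rose and at week 9, 5 rose and 1 fell. Tpm2, a tropomyosin, rose by 1.14 ± 0.25 at week 7 (adjusted p = 0.0017) and Myl9, a myosin light chain, by 0.93 ± 0.18 (adjusted p = 0.00056), and both had risen at week 5. Myh11, the heavy chain of smooth muscle myosin, had a change of -0.12 ± 0.20 (adjusted p = 0.75) and Cnn1, calponin, of 0.15 ± 0.14 (adjusted p = 0.54). The mean level of the 13 genes lay between 5.99 and 6.28 at week 7, against 5.55 to 5.98 in untreated kidneys.

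Fibroblast and pericyte markers were read beside the PDGF receptors. Of 14 fibroblast genes, 3 rose at week 7 (Col1a1, Col3a1 and Col14a1), and 5 rose and 1 fell at week 9. Of these, Col1a1 and Col3a1 are also in the target list. Dcn, decorin, had a change of 0.72 ± 0.29 at week 7 (adjusted p = 0.087) and Dpt, dermatopontin, of 0.59 ± 0.42 (adjusted p = 0.37). Of 8 measured pericyte and mesangial genes, Mcam (0.76 ± 0.20, adjusted p = 0.0071) and Notch3 (0.70 ± 0.14, adjusted p = 0.00085), a receptor of mural cells, rose at week 7. At week 9 Notch3 was the only one called.

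Other cells of the kidney moved as well. At week 7, 6 of 8 proximal tubule genes, 4 of 8 genes of the loop and distal tubule, 2 of 7 collecting duct genes and 4 of 10 endothelial genes fell, and 1 gene of the loop and distal tubule rose. At week 9 the numbers that fell were 2 of 8, 5 of 8, 2 of 7 and 4 of 10, and again 1 gene of the loop and distal tubule rose. The median change of the proximal tubule genes was -0.75 at week 7 and -0.38 at week 9. The mean level of the proximal tubule genes lay between 9.08 and 10.31 at week 7, against 10.24 to 10.32 in untreated kidneys. The part of this fall in the level of the other cells' genes was not tested.

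The genes with the most similar profile were looked up for each of the 8 genes among 8759 genes with a mean of at least 5, by Pearson's r over the 33 kidneys. Such values are a description, since all points share the same arrays and group changes. Acta2 was most like Tuba1a, a tubulin (r = 0.89), Mcam (0.88) and Tpm1, a tropomyosin (0.86). Vim was most like Efhd2 (0.96), Cd44, a hyaluronan receptor (0.95), and Coro1a, a leukocyte actin regulator (0.95), and S100a4 was most like Efhd2 (0.94), Ptger4, a prostaglandin receptor (0.92), and Bcl2a1a (0.92). Tgfbr2 was most like Mrc2, a collagen receptor (0.95), Itpripl2 (0.94) and Sox4 (0.94), and Tgfbi was most like Birc3 (0.95), Fstl1 (0.94) and Flna, filamin A (0.93). Pdgfrb was most like Capn2, Osmr and Lgals3 (each 0.85). No candidate exceeded 0.65 for Pdgfra or 0.73 for Tgfb1.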

How the data were processed

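Kidney RNA of 33 BWF1 mice was extracted with Trizol, labelled with NuGEN Ovation reagents and hybridised to 1 Affymetrix HT-MG-430 PM array per kidney. The authors deposited RMA values on the log2 scale, a normalization that corrects background and makes the array distributions equal. The base was taken from the values (0.585 to 13.1), and the processing notes of the submitters list RMA and Partek with no version. Array medians were 3.97 to 4.1. Precision is limited by the number of arrays, and dim probe sets show compressed changes.

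Of the 45141 probe sets, 104 controls were not used. Of the 45037 tested, 28898 had 1 symbol, 551 several and 15588 none. All arrays entered 1 limma 3.58.1 model (R 4.3.3) with 7 group means and 26 residual degrees of freedom. Each of 12 contrasts was adjusted by Benjamini-Hochberg over all probe sets, and the code was tested on simulated data. From each list, up to 4 called genes with the largest change at week 7 or 9 and up to 2 others could be named. Other named genes were chosen after their values were seen. The genes, lists and tests were chosen with earlier results of these data known. Alternatives changed the samples, weights, filter, probe set, prior, scaling, replicate block, beta-actin covariate and fold threshold, and left out each replicate.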

Additional observations from a re-analysis of the deposited data

Results flagged for a closer look

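A single kidney stood apart from the other 4 of its week in 3 of 48 groups of 5 kidneys, where chance gives about 1 in 20. S100a4 was 5.51 in week 9 replicate 2, the lowest of its week. Pdgfrb was 7.63 in week 2 replicate 5, the highest of its week, and Tgfbr2 was 8.64 in week 1 replicate 5, the lowest of its week.

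Levels in treated kidneys differed between weeks by limma's test of the difference, with no untreated kidneys matched to each week, so time after treatment and age cannot be told apart. Between weeks 9 and 1 they differed by 1.86 for Vim, 1.79 for S100a4, 1.53 for Tgfbi, 0.96 for Acta2 and 0.74 for Tgfbr2. Between weeks 7 and 5 they differed by 0.84 for Tgfbi and 0.60 for Tgfbr2. Every such difference was higher in the later week.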

How the results depend on the processing

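No call was gained or lost at weeks 1, 2 and 3 under the alternatives run. At week 5 the count of 3 called genes was 1 with array weights and 1 to 3 when each replicate was left out. With the mean of weeks 1, 2 and 3 in place of untreated, chosen after seeing the data, it was 4. At weeks 7 and 9 the reported counts of 5 and 4 were 4 to 6 and 4 to 5 when each replicate was left out and between 3 and 5 otherwise. For week 9 against week 1 the count of 5 was 3 when probe sets were averaged per gene and 3 with a change over 2-fold required as well. Between successive weeks the count of 2 was 0 with only the groups compared, 1 with probe sets averaged per gene, 1 with arrays centred on their median, 0 with over 2-fold required and 0 to 3 when each replicate was left out. The change of Acta2 at week 9 was -0.0647 with its probe sets averaged. That of Pdgfrb at week 5 was 0.0818 with the beta-actin ratio in the fit and -0.1041 to 0.0542 when each replicate was left out (0.0058 without week 5 replicate 2), beside -0.02 as reported. That of Tgfb1 between weeks 7 and 5 was -0.2037 to 0.1316 when each replicate was left out (0.0472 without week 7 replicate 4), beside -0.07 as reported. The cause was not tested. The replicate numbers do not pair the kidneys: deviations of 93 pairs with the same number had a median correlation of -0.006, and with the replicate block the counts were 3, 5 and 4 at weeks 5, 7 and 9, with no call changed. With 3 untreated kidneys, single untreated replicates change the week 5 calls, and the dim probe sets of Tgfb1 and Pdgfra limit what can be said of them.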
